A study of Mus musculus with 2 samples.

Results

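Nfkbia, Nfkbie, Tnfaip3, Nfkb1, Nfkb2, Relb, Nfkbiz, Bcl3, Birc3 and Icam1 are genes that NF-kB switches on, and several of them restrain NF-kB in return. They were taken by symbol, and all 10 had UMIs in both libraries. Their levels were followed by single-cell RNA sequencing in MC38 tumors, with and without the STING agonist MSA-2.

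MC38 is a mouse colon adenocarcinoma line, grown here as subcutaneous tumors in C57BL/6 mice. Tumors were injected 3 times, every 3 days, and collected on day 7. Each condition gave 1 library, and the wording on pooling leaves it unclear whether tumors of 3 mice were pooled in each. A first group received MSA-2, a small-molecule STING agonist, by intratumoral injection. The second is labelled untreated, while the design text gives it a vehicle of saline with 10% DMSO and the methods call it saline-treated. The study's methods mention a sort of the cells, without naming a marker, and mice of both sexes for this tumor model. With 1 library per condition the spread between tumors is unknown, and no test between conditions was made. The intervals given are exact at 95% and cover counting error only.

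NF-kB is a family of transcription factors built from the subunits RelA, RelB, c-Rel, p50 and p52, which IkB proteins hold in the cytoplasm. Ligands such as TNF and IL-1, and STING itself, activate kinases that lead to the loss of the IkB proteins, after which NF-kB enters the nucleus. Many of the genes it then induces encode its own inhibitors, which form a negative feedback loop, and others encode chemokines, survival factors and adhesion molecules.

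The members are shown first by the DNA before their transcription starts. RefSeq promoters on GRCm38.p6 were found for 7 of the 10 genes, and Nfkb1, Relb and Nfkbiz had no entry. The consensus motif of NF-kB was searched on both strands in the 250 bases before each start. It was present in at least 1 window of 4.46% of all 27025 genes and of 4 of the 7 members with a window (Nfkbia, Nfkbie, Tnfaip3 and Nfkb2). By windows it was 3.90% of 32851 and 6 of the 10 of the members. No match was found in the windows of Bcl3, Birc3 and Icam1, or in the other window of Tnfaip3. A match is a description of the letters and says nothing of binding. The runs are printed on the strand of the gene, with bases of a match in capitals. For Nfkbia, chr12:55492648-55492897 on the minus strand lies directly before the first exon, and the match starts 29 bases before the start, on the other strand. For Nfkbie, chr17:45555450-45555699 on the plus strand has its match 106 bases before the start. For Tnfaip3, chr10:19015411-19015547 on the minus strand lies inside the gene, in an intron next to the first exon of a longer annotated transcript. It has matches that start 125 and 12 bases before the start, the nearer one on the other strand. For Nfkb2, which has 3 annotated starts with a match before each, the run is chr19:46304688-46304717 on the plus strand, inside a 5′ untranslated exon of a longer annotated transcript. Its capitals join overlapping matches of both strands.
Nfkbia: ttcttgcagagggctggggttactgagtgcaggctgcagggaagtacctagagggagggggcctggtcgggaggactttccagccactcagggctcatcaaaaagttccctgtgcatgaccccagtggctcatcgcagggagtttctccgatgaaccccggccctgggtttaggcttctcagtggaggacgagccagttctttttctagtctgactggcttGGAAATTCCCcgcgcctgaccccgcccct
Nfkbie: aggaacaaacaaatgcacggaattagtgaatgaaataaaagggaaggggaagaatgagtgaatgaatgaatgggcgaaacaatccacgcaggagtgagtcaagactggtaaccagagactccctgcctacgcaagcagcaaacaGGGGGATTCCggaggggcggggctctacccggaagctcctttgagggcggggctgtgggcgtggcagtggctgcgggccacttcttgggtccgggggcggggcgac
Tnfaip3: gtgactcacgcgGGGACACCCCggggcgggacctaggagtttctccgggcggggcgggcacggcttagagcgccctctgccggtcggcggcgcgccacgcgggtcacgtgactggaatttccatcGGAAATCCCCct
Nfkb2: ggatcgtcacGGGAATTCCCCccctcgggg

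**Figure D1:**
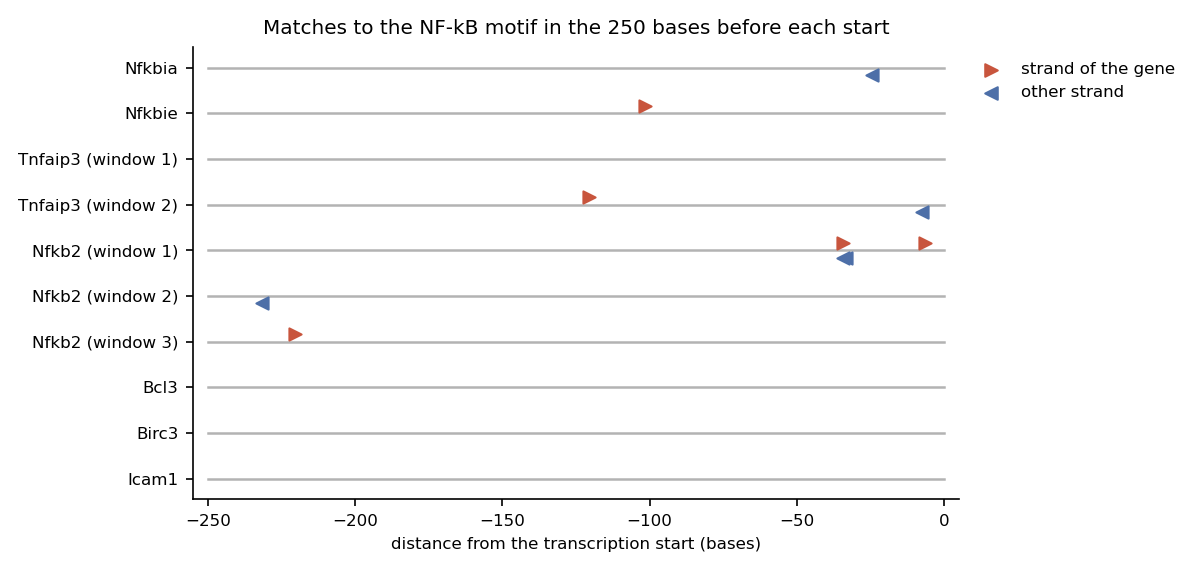
Positions of matches to the NF-kB motif in the 250 bases before each RefSeq start of 7 genes (x axis, distance from the start in bases; 1 line per window; triangles, matches on the strand of the gene or on the other strand). Of the 10 windows, 6 have a match, and the windows of Bcl3, Birc3 and Icam1 have none.

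The untreated library held 14386 barcodes with 198135335 UMIs (median 8372 per barcode), and the MSA-2 library 14617 barcodes with 204387165 UMIs (median 8661). These barcode numbers equal the cell numbers that the methods give after quality filtering. After a filter on genes and mitochondrial UMIs, 734 (5.23%) and 570 (4.08%) called doublets were removed, which left 13305 and 13393 cells. Between the libraries 53 barcodes were shared, 39 of them among the kept cells.

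Cells were placed in classes by gates on fixed marker lists. Gated cells were 357 monocyte-gated, 3571 macrophage-gated, 1242 T cell–gated, 200 NK cell–gated, 187 fibroblast-gated and 59 endothelial cell–gated in the untreated library. The MSA-2 library held 738, 1213, 155, 118, 628 and 70 of these, in the same order. A further 5811 untreated and 6470 MSA-2 cells were lineage-negative, which means that they were deep, nearly free of leukocyte transcripts and far below every gate. These 7 classes were compared. Neutrophil-gated cells (25 and 2519) and dendritic cell–gated cells (245 and 16) were too few in 1 of the libraries for a comparison by fold. A gate cuts a range, not a type: 37 untreated and 54 MSA-2 monocyte-gated cells lay within 25% of the threshold, with 216 and 360 cells as close on its other side. For macrophage-gated cells 83 and 85 lay just inside, and 128 and 97 just outside. Cells that were neither gated nor lineage-negative made up 11.4% of the untreated library and 10.5% of the other.

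The lineage-negative cells were led by Asns, Shisal2b and Phgdh in the untreated and by Asns, Ccnd1 and Klra4 in the MSA-2 library, and were not given a cell type. The labels call the samples tumor cells, but the epithelial part of the MC38 tumor marker list was near 0 in them. The whole list of 14 genes summed to 83.0 CPM (UMIs scaled to the total of the cells summed) in untreated and 109 CPM in MSA-2 lineage-negative cells, of which Cdkn2a gave 58.6 and 99.7 CPM. Krt18 was at 0 in the untreated cells, and Krt20 and Cldn4 in the MSA-2 cells. The cells behind a class also differed between libraries. In macrophage-gated cells the median of the monocyte list was 468 CPM untreated and 1857 CPM with MSA-2, while that of the macrophage list was 18836 and 13343 CPM. In fibroblast-gated cells the monocyte list, led by Plac8, had medians of 1635 and 5234 CPM, while the fibroblast list fell from 48270.3 to 26746 CPM. The NK cell list in NK cell–gated cells was at 3099 and 6439 CPM, and the fibroblast list in lineage-negative cells at 1544 and 2246 CPM. The T cell list in T cell–gated cells was at 5373 and 3711 CPM, and the endothelial cell list in its own class at 7564 and 5903 CPM. The macrophage list fell with MSA-2 in every compared class. Its medians were 1672 and 931 CPM in monocyte-gated, 430 and 0 in T cell–gated and 412 and 117 in NK cell–gated cells. They were 412 and 125 CPM in fibroblast-gated, 362 and 48.4 in endothelial cell–gated and 321 and 100 in lineage-negative cells. The monocyte list went from 213 to 463 CPM in lineage-negative cells, and the fibroblast list from 307 to 588 CPM in monocyte-gated cells. The part of these shifts in the results was not tested.

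Transcripts of neutrophil marker genes were more abundant in all compared classes of the MSA-2 library, and whether they were carried over or made by the cells was not tested. The median of the list of 11 neutrophil markers was 1099 CPM in MSA-2 monocyte-gated cells against 219.9 CPM untreated, and 606 against 0 CPM in macrophage-gated cells. In the other 5 compared classes it was 339.6 to 438 CPM with MSA-2 and 0 untreated. S100a8 or S100a9 was the most abundant gene of the list in all 7 of these MSA-2 classes. If their UMIs had brought other neutrophil RNA with them at the ratio seen in MSA-2 neutrophil-gated cells, this would have made up 0.201% to 9.14% of a member's MSA-2 level. The highest share was that of Icam1 in lineage-negative cells, whose log2 ratio went from 0.97 to 0.84 once it was taken off. None of the 70 ratios crossed 2-fold in this way.

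The most members passed 2-fold in monocyte-gated cells, where Tnfaip3, Nfkbiz, Icam1 and Nfkbia were each at least 2-fold higher with MSA-2. That is 4 of the 10 genes, and none was 2-fold lower, against 14.1% of all measured genes higher and 12.1% lower by the same fold in these cells. With a looser gate Icam1 fell just under 2-fold, which left 3, and with TMM scaling Nfkb1 passed it as well, which gave 5. In macrophage-gated cells 2 of the 10 passed 2-fold upward (Tnfaip3 and Nfkbia) and none downward, against 9.42% and 8.45% of all genes. In lineage-negative cells 2 passed upward (Tnfaip3 and Bcl3) and none downward, against 12.9% and 6.64%, a count of 2 that became 4 with a stricter gate and 1 with 10 CPM added. With such backgrounds about 1 gene in 10 would pass upward. The counts of 2 in macrophage-gated and lineage-negative cells thus stand little apart from the background. The median log2 ratio of the 10 genes was 0.52 in monocyte-gated, 0.19 in macrophage-gated and 0.78 in lineage-negative cells. The median of all genes was -0.22, -0.13 and 0.08 there. In lineage-negative cells all 10 genes had a ratio above 0, though that of Nfkbie was 0.03 and fell to -0.05 with TMM scaling.

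In the other 4 classes 0 to 3 members passed 2-fold in either direction. In fibroblast-gated cells Tnfaip3 alone was 2-fold higher, against 9.61% of all genes, and none was 2-fold lower, against 10.4%. In endothelial cell–gated cells it was Bcl3 alone, against 7.35%, with none lower, against 9.97%. NK cell–gated cells had Nfkbia and Icam1 higher, against 9.57%, and Relb lower, against 8.55%. No member passed 2-fold in T cell–gated cells, where 7.46% of all genes were higher and 10.8% lower, although the ratio of Icam1 was 0.98. With backgrounds of 7.35% to 10.8%, about 1 gene in 10 would pass in each direction, so these counts stand little apart from the background. The median log2 ratio of the 10 genes was 0.33 in fibroblast-gated, 0.59 in endothelial cell–gated, 0.09 in NK cell–gated and 0.06 in T cell–gated cells, with -0.14, -0.17, -0.07 and -0.11 for all genes. The median in NK cell–gated cells turned to -0.09 with a minimum of 50 UMIs. TMM scaling moved all log2 ratios by 0.26 in monocyte-gated, 0.22 in fibroblast-gated and 0.16 in endothelial cell–gated cells, and by less than 0.1 elsewhere. With it the medians of the 10 genes were 0.78, 0.55 and 0.75 in these 3 classes.

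**Figure D2:**
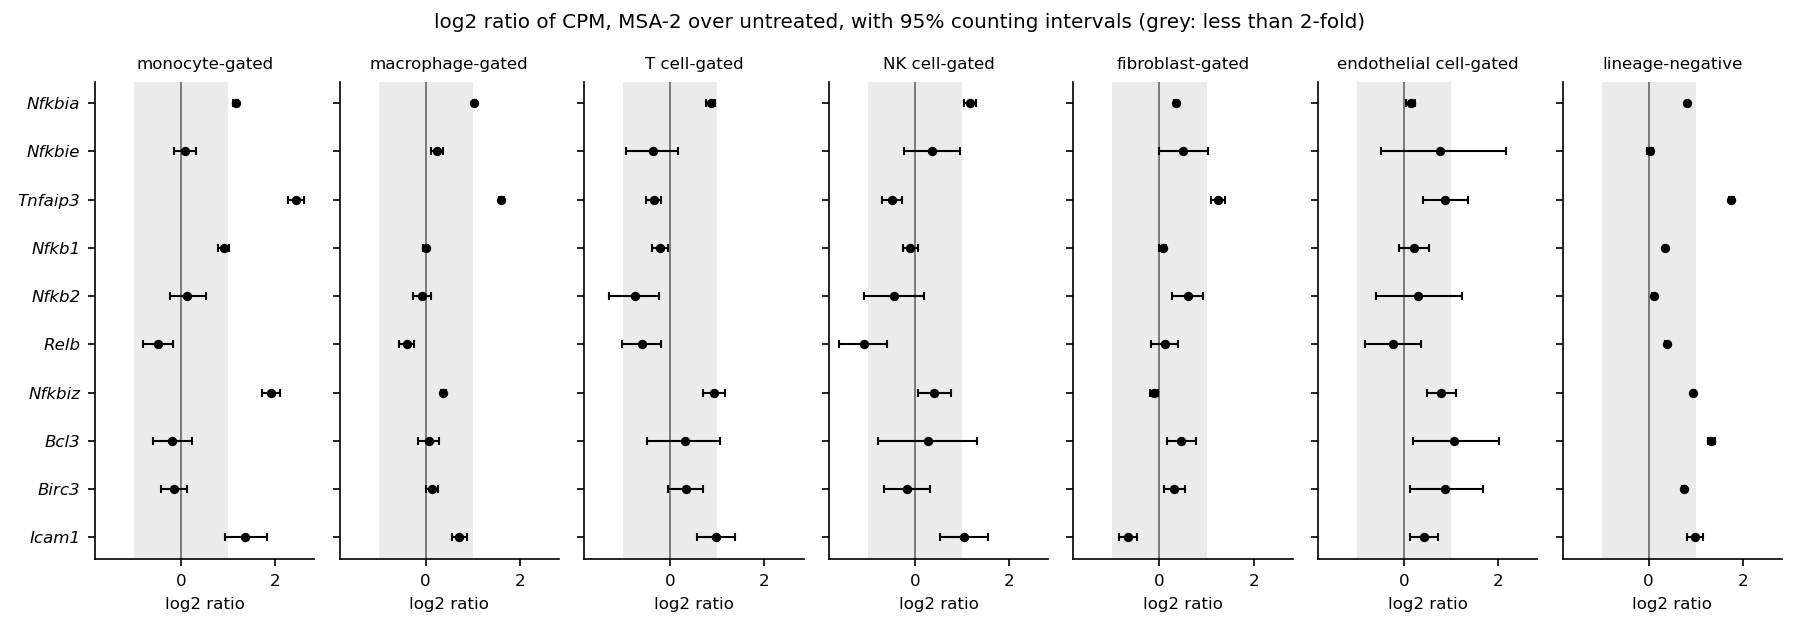
Log2 ratio of CPM, MSA-2 over untreated, for the 10 genes (y axis) in the 7 compared classes (panels), with 95% counting intervals as bars and the range under 2-fold in grey. Tnfaip3 runs from -0.48 in NK cell–gated to 2.44 in monocyte-gated cells, while Nfkbia is above 0 in every panel and Relb is below 0 in 5 of the 7.

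Nfkbia encodes IkB-alpha, the inhibitor that NF-kB restores after its activation. It was the only gene of the 10 that was higher with MSA-2 beyond counting error in all 7 classes, and its ratio kept its sign under every processing setting tried. In monocyte-gated cells Nfkbia was at 2181 CPM untreated (95% interval 2102 to 2262) and 4869 CPM with MSA-2 (4785 to 4955), a log2 ratio of 1.16. In macrophage-gated cells it was at 1582 and 3238 CPM, a log2 ratio of 1.03 (1.01 to 1.06) that was 0.90 with a stricter gate. NK cell–gated cells, which had the lowest untreated level of Nfkbia, went from 727 to 1629 CPM (log2 ratio 1.16, and 0.85 with equal weight per cell).
Nfkbia thus rose in each of these leukocyte classes, from different starting levels. T cell–gated cells had 1008 CPM of Nfkbia untreated and 1829 CPM with MSA-2 (log2 ratio 0.86). Lineage-negative cells had 1342 and 2367 CPM (0.82). The stromal classes started higher and moved less: fibroblast-gated cells were at 2336 and 2983 CPM (0.35) and endothelial cell–gated cells at 2790.2 and 3072 CPM (0.14, 0.04 to 0.23). In untreated tumors the order of Nfkbia levels ran from endothelial cell–gated through fibroblast-, monocyte- and macrophage-gated to lineage-negative, T cell–gated and NK cell–gated cells, and no neighbours overlapped. With MSA-2 monocyte-gated cells led, and the intervals of macrophage-gated and endothelial cell–gated cells overlapped, as did those of endothelial cell–gated and fibroblast-gated cells.

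Tnfaip3 encodes A20, a ubiquitin-editing enzyme that shuts off signaling between the TNF and Toll-like receptors and NF-kB. In monocyte-gated cells it went from 232 CPM (206 to 259) to 1261 CPM (1218 to 1305), a log2 ratio of 2.44 (2.27 to 2.62), the largest of any member in a compared class. Macrophage-gated cells had 288 CPM untreated and 873 CPM with MSA-2 (1.60, 1.55 to 1.66). Fibroblast-gated cells had 198 and 466 CPM (1.24, 1.10 to 1.38).
Relative to all UMIs of the class, the direction was the opposite in lymphocytes. T cell–gated cells fell from 712 to 557 CPM of Tnfaip3 (-0.35, -0.51 to -0.20), and NK cell–gated cells from 473 to 339.7 CPM (-0.48, -0.69 to -0.27). Of the 7 compared classes these had the highest untreated levels of the gene. Counted per cell, Tnfaip3 UMIs were 2.62 untreated and 2.46 with MSA-2 in T cell–gated cells. In NK cell–gated cells they were 2.535 and 2.559, so no fall per cell was seen there. The median depth of NK cell–gated cells was 4842 UMIs untreated and 6242 with MSA-2. Lineage-negative cells had the lowest level of Tnfaip3 in both libraries, at 30.6 and 103 CPM (1.75), and endothelial cell–gated cells had 95.5 and 174 CPM (0.87, 0.39 to 1.36). In the untreated library Tnfaip3 ran from T cell–gated cells down to lineage-negative cells over a 23.3-fold range, and only the neighbours monocyte-gated and fibroblast-gated cells overlapped. With MSA-2 the range was 12.3-fold, monocyte-gated and macrophage-gated cells stood above T cell–gated cells, and no neighbours overlapped.

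Nfkbie encodes IkB-epsilon, another inhibitor that NF-kB induces. Its levels were 175 and 185 CPM in monocyte-gated and 94.4 and 112 CPM in macrophage-gated cells. All other compared classes lay between 14.7 and 60.3 CPM. The difference between libraries exceeded counting error in macrophage-gated cells only (0.24, 0.12 to 0.37). The ratio of Nfkbie changed sign in monocyte-gated cells with a stricter cell filter or gate (0.08 to -0.01 and -0.05) and in fibroblast-gated cells with a looser gate (0.50 to -0.17). The ratios in T cell–gated (-0.36, -0.94 to 0.17), NK cell–gated (0.36) and endothelial cell–gated cells (0.76, -0.50 to 2.16, from 8 and 19 UMIs) had wide intervals, so that a change of Nfkbie there could have been missed.

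**Figure D3:**
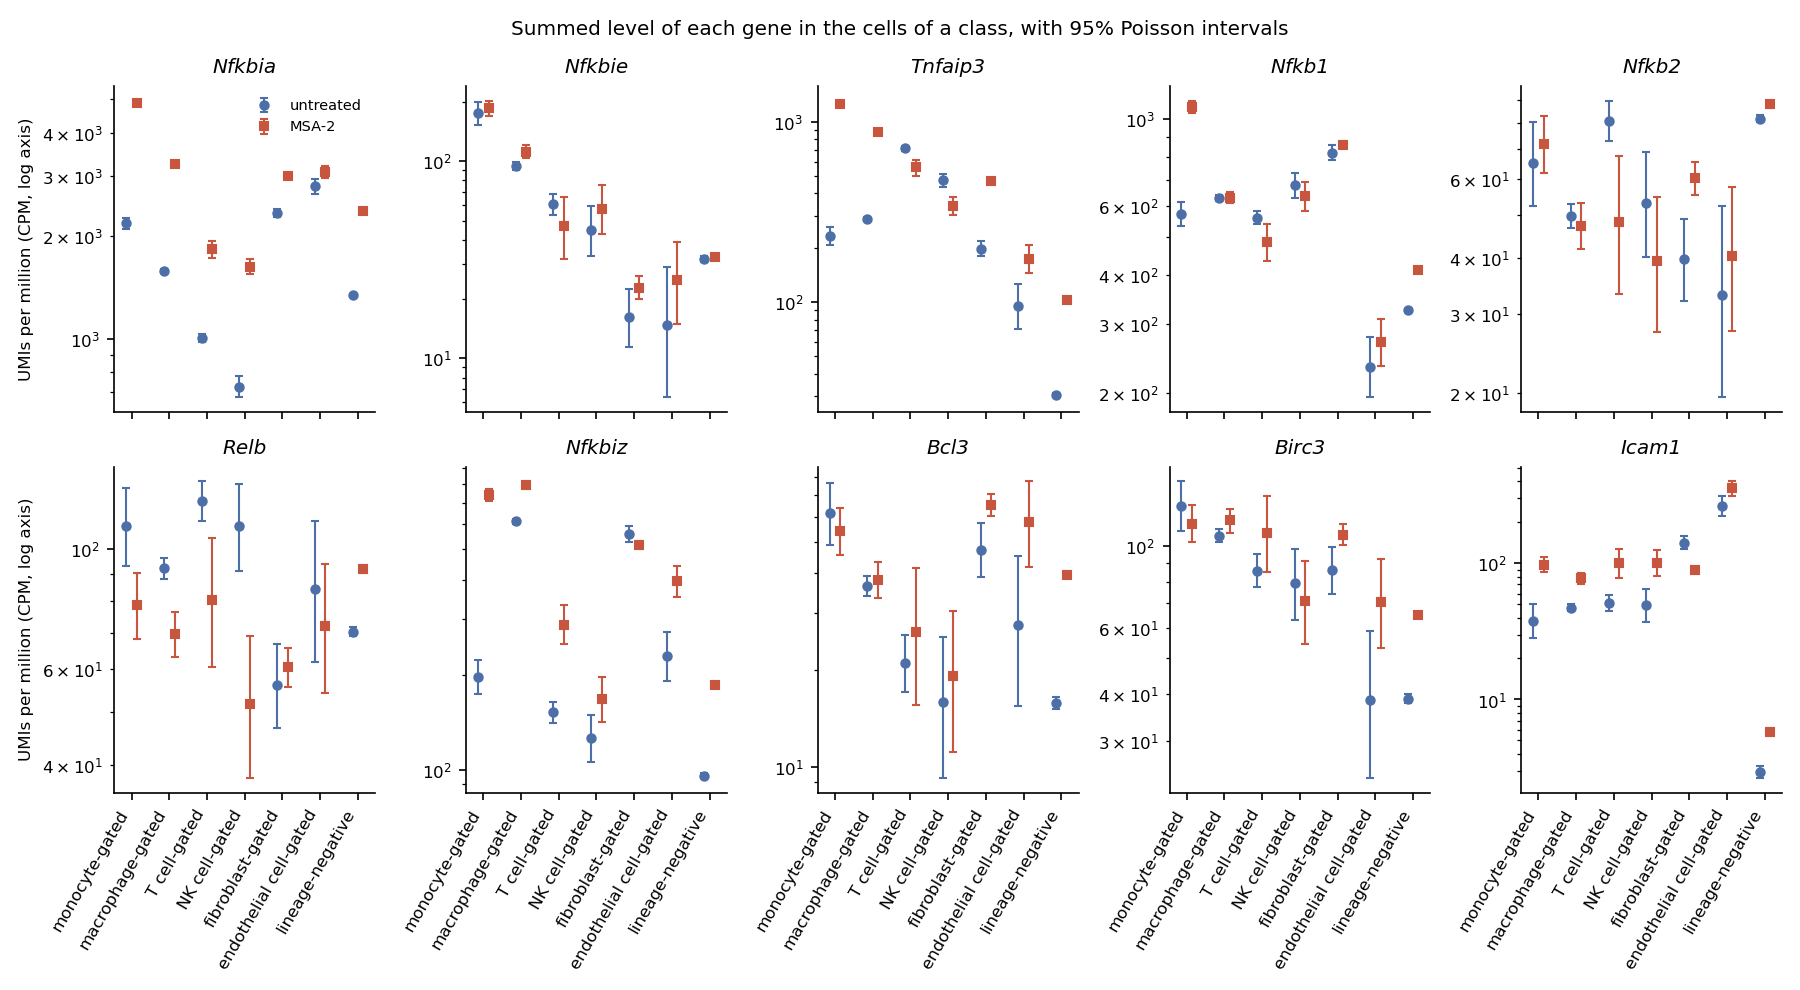
Level of each of the 10 genes in CPM (y axis, log scale, different for each panel) in the cells of 7 classes (x axis) of the untreated and the MSA-2 library, with 95% Poisson intervals as bars. In the panel of Tnfaip3 the MSA-2 points stand above the untreated points except in T cell–gated and NK cell–gated cells; in that of Nfkbia they stand above in all 7 classes.

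Among the subunits, Nfkb1 encodes p105, the precursor of p50. It went from 573 to 1075 CPM in monocyte-gated cells (0.91, 0.79 to 1.03), and this ratio reached 1.17 with TMM scaling. Macrophage-gated cells had 628 CPM untreated and 630.2 CPM with MSA-2, a log2 ratio of 0.00 (-0.05 to 0.06) that turned to -0.07 with a stricter gate. Lineage-negative cells had 325 and 412 CPM of Nfkb1 (0.34).
Nfkb1 was thus lower in monocyte-gated than in macrophage-gated cells of untreated tumors, and higher in them with MSA-2. T cell–gated cells had 560.0 and 484 CPM (-0.21, -0.38 to -0.04). In the remaining 3 classes the ratio of Nfkb1 lay between -0.09 and 0.21 and within counting error, and with called doublets kept its sign changed in NK cell–gated (0.03) and endothelial cell–gated cells (-0.18).

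Nfkb2 encodes p100, the precursor of p52, and Relb its partner in the non-canonical branch of the pathway. Nfkb2 was at 39.9 and 60.4 CPM in fibroblast-gated cells (0.60, 0.28 to 0.93). It was at 81.1 and 48.3 CPM in T cell–gated cells (-0.75, -1.31 to -0.23). Of the 7 compared classes, lineage-negative cells held the highest level of Nfkb2 in both libraries, at 81.9 and 88.2 CPM (0.11), although in the untreated library their interval overlapped that of T cell–gated cells. The other 4 classes did not differ beyond counting error in Nfkb2.
Relb was lower with MSA-2 in all 4 compared leukocyte classes. It went from 110.2 to 78.8 CPM in monocyte-gated cells (-0.48, -0.80 to -0.17, and -0.22 with TMM scaling). In macrophage-gated cells it went from 92.1 to 69.6 CPM (-0.40, -0.56 to -0.25). T cell–gated cells had 123 and 80.5 CPM (-0.61, -1.03 to -0.21), and NK cell–gated cells 110.1 and 51.7 CPM (-1.09, -1.61 to -0.59, and -0.91 with a looser gate). Lineage-negative cells had more Relb with MSA-2, at 70.4 and 91.8 CPM (0.38, 0.35 to 0.42). Fibroblast-gated cells had a ratio of 0.11, which turned to -0.05 with a looser gate, and endothelial cell–gated cells -0.23, both within counting error. The range of Relb over classes was narrow, 2.18-fold untreated and 1.77-fold with MSA-2, and all neighbours overlapped in the MSA-2 library.

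Nfkbiz encodes IkB-zeta, a nuclear protein that works with p50 to turn on later target genes such as Il6 and Lcn2. In monocyte-gated cells it went from 197 CPM (174 to 222) to 742 CPM (710 to 776), a log2 ratio of 1.92 (1.73 to 2.11). Of the 7 compared classes, macrophage-gated cells had the highest level of Nfkbiz in both libraries, at 612 and 796 CPM (0.38, 0.33 to 0.43), and with MSA-2 their interval overlapped that of monocyte-gated cells. The untreated gap between the myeloid classes was thus nearly closed. Lineage-negative cells had 95.9 and 185 CPM (0.95), and T cell–gated cells 152 and 288 CPM (0.92, 0.69 to 1.15). Endothelial cell–gated cells had 229.6 and 395 CPM (0.78), and NK cell–gated cells 126 and 168 CPM (0.41, 0.07 to 0.76). In fibroblast-gated cells Nfkbiz was at 558 and 516 CPM, a log2 ratio of -0.11 (-0.20 to -0.02) that turned to 0.11 with TMM scaling.

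Bcl3 encodes a nuclear IkB protein that binds p50 and p52. Its levels lay between 15.8 and 61.6 CPM untreated and between 19.1 and 65.2 CPM with MSA-2. Lineage-negative cells, with the lowest untreated level of Bcl3, went from 15.8 to 39.6 CPM (1.33, 1.26 to 1.40, and 0.94 with 10 CPM added). Endothelial cell–gated cells had 27.6 and 57.6 CPM, from 15 and 44 UMIs (1.06, 0.19 to 2.02).
Fibroblast-gated cells had 47.4 and 65.2 CPM (0.46, 0.16 to 0.77). The 4 leukocyte classes did not differ beyond counting error in Bcl3, and the ratio in monocyte-gated cells turned from -0.18 to 0.08 with TMM scaling. Neighbours in the order of Bcl3 levels overlapped in 6 of 6 pairs untreated and 5 of 6 with MSA-2.

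Birc3 encodes cIAP2, a ubiquitin ligase that promotes cell survival downstream of the TNF receptors. It was higher with MSA-2 beyond counting error in lineage-negative cells, at 38.9 and 65.3 CPM (0.75, 0.70 to 0.79). Endothelial cell–gated cells had 38.6 and 70.7 CPM of Birc3 (0.87, 0.12 to 1.68). Fibroblast-gated cells had 85.9 and 107 CPM (0.32, 0.09 to 0.54), and macrophage-gated cells 106 and 117 CPM (0.13, 0.01 to 0.26).
No compared class passed 2-fold for Birc3, although the ratio in endothelial cell–gated cells was 1.04 with TMM scaling and 1.52 with equal weight per cell. Its ratio in monocyte-gated cells, -0.16 and within counting error, turned to 0.10 with TMM scaling. The range of Birc3 over classes was 3.31-fold untreated and 1.79-fold with MSA-2.

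Icam1 encodes the adhesion molecule that leukocyte integrins bind on endothelium. Of the 7 compared classes, endothelial cell–gated cells had its highest level in both libraries, at 266 and 356 CPM (0.42, 0.12 to 0.72), and lineage-negative cells its lowest, at 2.93 and 5.75 CPM (0.97, 0.80 to 1.14). With 10 CPM added the Icam1 log2 ratio of lineage-negative cells was 0.28. The range over classes was 91.0-fold untreated and 61.9-fold with MSA-2, the widest of the 10 genes. Monocyte-gated cells went from 38.0 to 98.0 CPM of Icam1 (1.37, 0.92 to 1.83).
The rise was shared by the other leukocyte classes. NK cell–gated cells had 49.4 and 101 CPM (1.03, 0.53 to 1.55, and 0.61 with equal weight per cell), T cell–gated cells 51.3 and 101 CPM (0.98, 0.57 to 1.37) and macrophage-gated cells 47.3 and 77.7 CPM (0.72, 0.56 to 0.88). Fibroblast-gated cells were the exception, with 142 CPM of Icam1 untreated and 89.7 CPM with MSA-2 (-0.66, -0.85 to -0.47). In untreated tumors only endothelial cell–gated cells had more among the compared classes. With MSA-2 the intervals of fibroblast-gated cells overlapped those of monocyte-gated and macrophage-gated cells.

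Because depth differed between classes, shares of cells with a UMI were compared at a common depth, with 1500 UMIs drawn from every cell. At that depth Tnfaip3 was seen in 26.1% (21.6% to 31.1%) of 348 untreated and 75.1% (71.5% to 78.4%) of 622 MSA-2 monocyte-gated cells. In macrophage-gated cells the shares were 31.0% and 67.3%. In T cell–gated cells they were 63.8% and 47.9%, and in NK cell–gated cells 49.0% and 39.1%, where the intervals overlapped.
With MSA-2 the gene was thus seen in most monocyte-gated and macrophage-gated cells, not in a few. Lineage-negative cells, at a median of 21628 untreated and 21070 MSA-2 UMIs before thinning, gave 4.82% and 15.7%. This was the lowest share of any class in the untreated library, and with MSA-2 its interval overlapped that of endothelial cell–gated cells (16.9%). The part of free RNA in these shares was not tested. Without thinning the shares of Tnfaip3 were 47.3% and 90.4% in monocyte-gated cells (median depth 3529 and 3370 UMIs) and 42.7% and 75.1% in lineage-negative cells. They were 83.7% and 80.0% in T cell–gated and 77.0% and 77.1% in NK cell–gated cells. Thinning left out 9 untreated and 116 MSA-2 monocyte-gated cells that were shallower.

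Nfkbia was seen in most cells of every class at this depth. The shares were 85.9% and 98.2% in monocyte-gated, 75.9% and 90.8% in macrophage-gated and 75.7% and 89.7% in lineage-negative cells, and in no class were they under 57.3%. Nfkbiz was seen in 21.3% of untreated and 60.3% of MSA-2 monocyte-gated cells, and in 57.3% and 54.6% of fibroblast-gated cells. Icam1 was seen in 5.46% and 13.3% of monocyte-gated cells, in 26.3% and 29.2% of endothelial cell–gated cells and in 23 of 5811 untreated (0.396%) and 65 of 6470 MSA-2 lineage-negative cells. Unthinned, Icam1 was seen in 11.5% and 24.1% of monocyte-gated and 5.66% and 10.6% of lineage-negative cells.

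**Figure D4:**
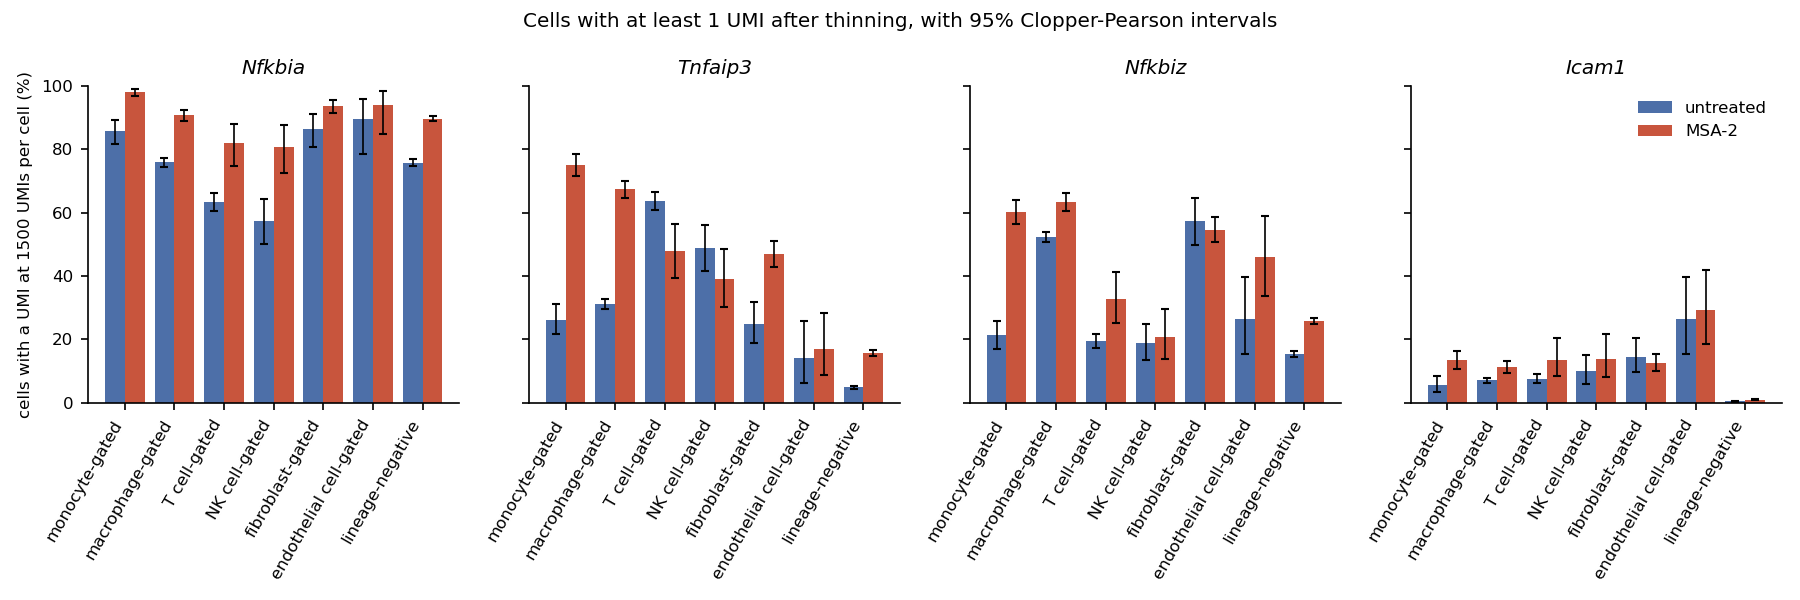
Share of cells with at least 1 UMI of Nfkbia, Tnfaip3, Nfkbiz or Icam1 (y axis, percent) in 7 classes (x axis) of both libraries, after thinning to 1500 UMIs per cell, with 95% Clopper-Pearson intervals as error bars. The bars of Tnfaip3 rise from 26.1% to 75.1% in monocyte-gated cells and go from 63.8% to 47.9% in T cell–gated cells.

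Over all kept cells, Tnfaip3 (90.3 and 191 CPM, log2 ratio 1.08) and Bcl3 (19.8 and 41.5 CPM, 1.07) were at least 2-fold higher and none was 2-fold lower, against 12.5% and 9.14% of all genes. Nfkbia followed with 1391 and 2625 CPM (0.92). With equal weight per cell Bcl3 was at 0.74 and Nfkbia at 1.40, so that Nfkbia passed 2-fold in place of Bcl3. Tnfaip3 was at 0.98 with a stricter filter, and Bcl3 at 0.79 with 10 CPM added. These sums mix change within classes with change in the make-up of the tumor. The median of the 10 genes was 0.57, with 0.02 for all genes, and 9 of the 10 ratios were above 0. Nfkbie was the exception at -0.06, which turned to 0.34 when each cell had equal weight.

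The classes that held the UMIs of a gene were not the same in both libraries. Lineage-negative cells, which were deep and numerous, held most UMIs of Nfkbia (73.9% untreated and 74.1% with MSA-2), Nfkb2 (81.3% and 85.4%) and Relb (70.2% and 84.1%). They also held 140031184 of the 182811846 kept UMIs of all genes untreated and 157648684 of 191888910 with MSA-2. A majority there is therefore no trait of these genes. For Tnfaip3 the lineage-negative share went from 25.9% to 44.2%. Macrophage-gated cells held 36.5% of its UMIs in the untreated library and 14.6% in the MSA-2 library, and T cell–gated cells 19.7% and 1.04%. Monocyte-gated cells went from 1.85% to 8.95% and fibroblast-gated cells from 2.73% to 11.8% of the Tnfaip3 UMIs.
Numbers of cells and levels per cell both enter these shares. Macrophage-gated cells went from 20923311 to 6136016 UMIs of all genes and T cell–gated cells from 4562689 to 683502. Neutrophil-gated cells went from 32870 to 4980988 UMIs. The shares thus follow the size of a class as well as the level of a gene. Neutrophil-gated cells held 0.0908% of the Tnfaip3 UMIs untreated and 9.13% with MSA-2, and for Icam1 0.236% and 16.4%. Macrophage-gated cells were the main holder of Icam1 UMIs in the untreated library, with 38.9%, and held 12.1% with MSA-2.

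**Figure D5:**
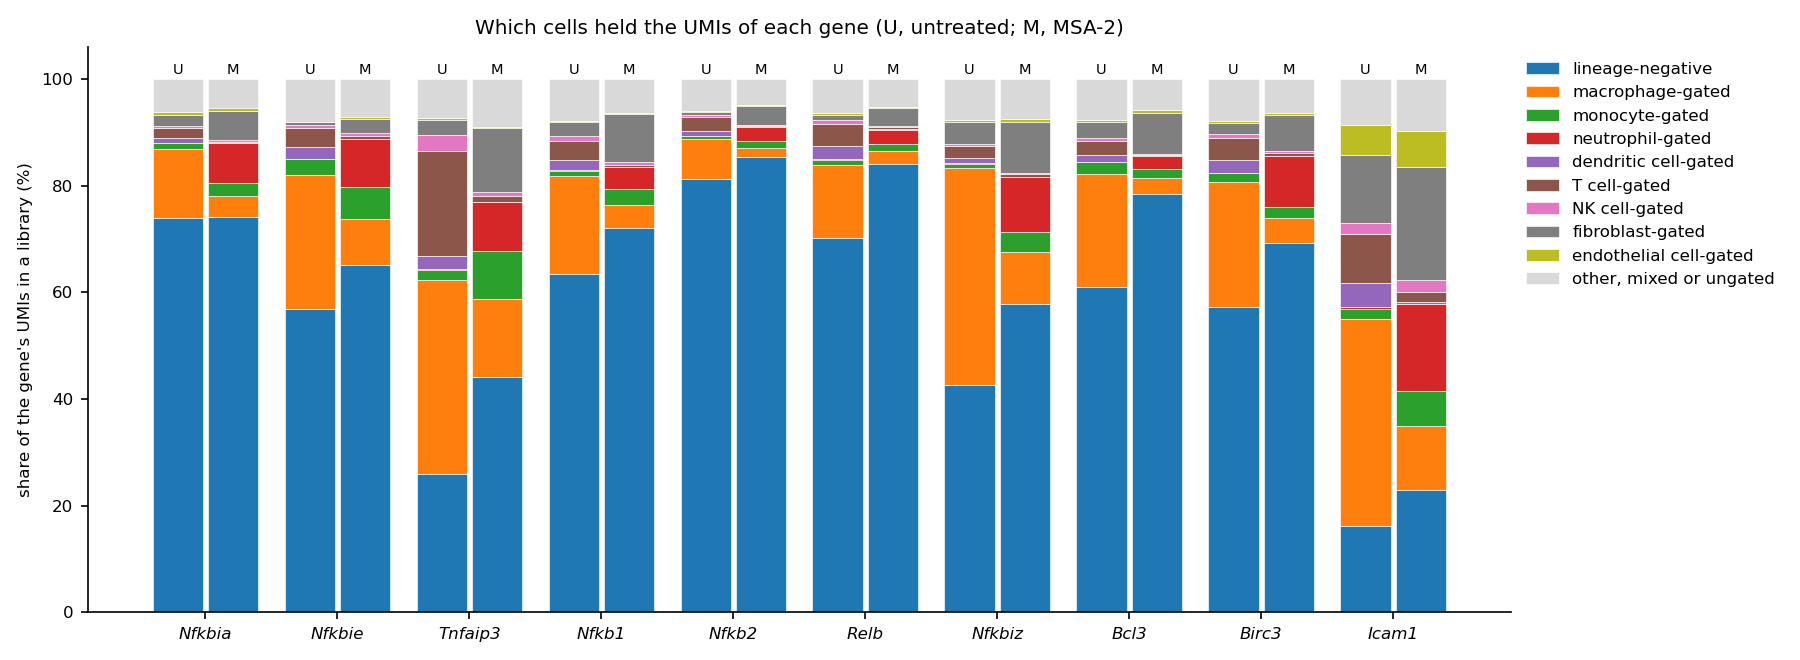
Share of the UMIs of each of the 10 genes (y axis, percent of all UMIs of the gene in kept cells) held by each cell class, in the untreated (U) and the MSA-2 (M) library. Macrophage-gated cells shrink from 36.5% to 14.6% of the Tnfaip3 bar and from 38.9% to 12.1% of the Icam1 bar, while neutrophil-gated cells take up to 16.4% of an MSA-2 bar. Over all genes, macrophage-gated cells also shrink, from 20923311 to 6136016 UMIs.

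Neutrophil-gated cells can be described in the MSA-2 library, with 2519 cells at a median of 1822 UMIs. They had more Nfkbia than any compared class, at 7517 CPM (7441 to 7594), and more Nfkbiz, at 1040.2 CPM (1012 to 1069). They had Tnfaip3 at 672 CPM, Nfkb1 at 719 CPM and Birc3 at 286 CPM (271 to 301). Thinning to 1500 UMIs per cell left out 668 of them that were shallower. Of the remaining 1851 cells, 98.3% had a UMI of Nfkbia, 67.4% of Nfkbiz and 51.0% of Tnfaip3. The 25 untreated neutrophil-gated cells had 6723 CPM of Nfkbia (5866 to 7671), from 221 UMIs, and their other members rested on 2 to 38 UMIs each. No difference between libraries was detectable at this depth for any of the 10 genes.

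Dendritic cell–gated cells changed in make-up, so that their values are given side by side only. The median of the list for mature regulatory dendritic cells (Ccr7, Fscn1 and others) was 372 CPM in the 245 untreated and 3807 CPM in the 16 MSA-2 cells, and Xcr1 and Clec9a, which mark cross-presenting dendritic cells, were at 0 in the latter, which by a limit of 3 counts allows up to 48.6 CPM. Nfkbia was at 1308 CPM untreated and 4132 CPM with MSA-2, Tnfaip3 at 238 and 745 CPM, Relb at 206 and 389 CPM and Icam1 at 65.8 and 292 CPM. Relb was thus higher in this class than in any compared class of either library. Bcl3 had 48 UMIs untreated and 0 UMIs in the MSA-2 cells, with the same limit of 3 counts, which lies above the untreated level of 27.2 CPM.

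Other genes of the pathway were taken from a fixed list, of which 78 of 79 symbols were found. In monocyte-gated cells 19 of the 74 listed genes with at least 10 UMIs were 2-fold higher and 8 were 2-fold lower, beside 4 and 0 of the 10 members, with 14.1% and 12.1% of all genes. The counts were 12 and 6 of 74 in macrophage-gated cells (all genes 9.42% and 8.45%), 17 and 9 of 74 in T cell–gated cells (7.46% and 10.8%) and 19 and 8 of 70 in NK cell–gated cells (9.57% and 8.55%). They were 24 and 5 of 75 in fibroblast-gated cells (9.61% and 10.4%), 17 and 4 of 67 in endothelial cell–gated cells (7.35% and 9.97%) and 18 and 5 of 78 in lineage-negative cells (12.9% and 6.64%). The lower counts were near these shares.
Target genes made up most of the higher ones. In monocyte-gated cells they were 13 of the 19, beside the ligand Tnf, which went from 77.5 to 1389 CPM (4.16), and the kinase Tbk1, from 87.4 to 208 CPM (1.25). Il6, a cytokine that IkB-zeta helps induce, was at 206 and 847 CPM in fibroblast-gated cells (2.04). The chemokine gene Ccl5 was at 1189 and 6383 CPM in macrophage-gated cells (2.42). Cxcl2 was at 2305 and 12462 CPM in monocyte-gated cells (2.43). Il1b was lower with MSA-2 in monocyte-gated (4546 and 2047 CPM, -1.15) and macrophage-gated cells (2358 and 725 CPM, -1.70). It was higher in T cell–gated (61.4 and 174 CPM), NK cell–gated (1.91), fibroblast-gated (1.80) and lineage-negative cells (0.94), and over all cells (0.48). The target gene Cd83 was 2-fold lower in all compared classes but endothelial cell–gated cells, with 312 and 23.4 CPM in monocyte-gated cells (-3.73) and 8.56 and 1.002 CPM in lineage-negative cells (-3.09). Neutrophils also express Cxcl2 and Il1b, and the part of their RNA in these values was not computed. Cd83 was at 483 and 138 CPM in macrophage-gated cells. The median of the macrophage list was also lower with MSA-2 in every compared class, and its part in the Cd83 ratios was not tested.

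The subunits outside the 10 genes moved little or downward, and Rela and Rel are named here after their values were seen. Rela, the main activating subunit, had ratios between -0.46 and 0.10 in the 7 classes. Rel, which encodes c-Rel, was at 442 and 268 CPM in monocyte-gated cells (-0.72), 464 and 285 CPM in macrophage-gated cells (-0.70) and 257 and 181 CPM in T cell–gated cells (-0.50). As with Relb, the lineage-negative cells went the other way, at 56.4 and 77.0 CPM of Rel (0.45). Among other brakes on the pathway, Tnip1, a partner of A20, was 2-fold higher in fibroblast-gated (1.32), endothelial cell–gated (1.35) and lineage-negative cells (1.30), but not in monocyte-gated and macrophage-gated cells. Tnip3 was 2-fold lower in monocyte-gated (-2.08) and higher in lineage-negative cells (1.82). The deubiquitinase gene Cyld was lower in monocyte-gated cells, at 67.6 and 24.2 CPM (-1.48).

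A list of 15 immediate-early and stress genes, which dissociation of a tissue can induce, was set beside the members. Its median log2 ratio was 0.20 in monocyte-gated cells, with -0.22 for all genes and 8 of the 15 above 0, and below 0 in the other 6 classes, between -0.68 in lineage-negative and -0.23 in endothelial cell–gated cells. In monocyte-gated cells Egr1 and Dusp1 were 2-fold higher and Fosb, Jund and Nr4a1 2-fold lower. In macrophage-gated, T cell–gated, NK cell–gated and fibroblast-gated cells 5 of the 15 were 2-fold lower, and 0, 1, 0 and 0 were 2-fold higher. In lineage-negative cells 3 and in endothelial cell–gated cells 1 of the 15 were lower and none higher. Of all genes, 6.64% to 12.1% were 2-fold lower in the 7 classes. The share of all genes 2-fold higher was 7.35% to 14.1%, with the highest in monocyte-gated cells. The part of dissociation in the members' ratios was not tested.

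The mean standardised level of the 10 genes over the 14 class-by-library sums was lowest in untreated lineage-negative cells (-1.11) and highest in MSA-2 monocyte-gated cells (1.14), with untreated monocyte-gated cells at 0.50. The members did not share 1 pattern. Birc3 followed the mean of the other 9 most closely (Pearson r 0.83 over 14 points), then Tnfaip3 (0.70) and Nfkbiz (0.63), whereas Relb (-0.07), Nfkb2 (-0.06) and Icam1 (0.05) did not follow it. Among 11560 other genes, those most like the mean were Ifi27l2a (r 0.89), Rffl (0.88), Hpse (0.88), Slfn2 (0.87), Cpt1a (0.87), Il17ra (0.86), BC005537 (0.85), Aph1c (0.85), Samhd1 (0.85) and Cxcl2 (0.84). Of these 10 genes, 7 had their highest level in MSA-2 monocyte-gated cells, where Slfn2 reached 1163 CPM and Ifi27l2a 3809 CPM. They were chosen by likeness to a mean that was itself highest there, so this follows in part from the choice. The points share libraries and differ in depth, and the correlations are descriptions only.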

How the data were processed

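The data were UMI counts per gene and cell, which the authors deposited after Cell Ranger alignment to mm10 (7.0.0 in their notes, with other releases in the file header and methods); their notes give Seurat 4.3.0 and the study's methods a later release. Barcodes under 500 genes or over 20% mitochondrial UMIs were dropped. Doublets called by Scrublet (scanpy 1.11.5), with the doublet rate set at 0.8% per 1000 barcodes, were removed. Gates on marker lists gave the classes and their thresholds were set after the data were seen. UMIs were summed by class as CPM, with Poisson and conditional binomial intervals (Python 3.11.15, numpy 2.4.6, scipy 1.17.1, pandas 2.3.3). Ratios needed a joint 10 UMIs over the libraries, and 50 cells in each. TMM factors came from edgeR 4.0.16 (R 4.3.3), and figures from matplotlib 3.10.9. The ratios and their intervals were tested on counts simulated from the untreated macrophage-gated and monocyte-gated sums. The other steps were not tested in this way. Named genes were the 10 members, listed pathway genes past 2-fold in a compared class with at least 50 UMIs, and the 10 genes most like the members; Rela and Rel were added after their values were seen. Members and lists were chosen with earlier results of these data known.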

Additional observations from a re-analysis of the deposited data

Results flagged for a closer look

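For 6 members the log2 ratio between libraries lay beyond counting error in opposite directions in different classes, and the widest gap of each is given. It was 2.92 for Tnfaip3 between monocyte-gated (2.44) and NK cell–gated cells (-0.48), and 1.12 for Nfkb1 between monocyte-gated (0.91) and T cell–gated cells (-0.21). Nfkb2 gave 1.35 between fibroblast-gated (0.60) and T cell–gated cells (-0.75), and Relb 1.47 between lineage-negative (0.38) and NK cell–gated cells (-1.09). Between monocyte-gated and fibroblast-gated cells it was 2.03 for Nfkbiz (1.92 and -0.11) and 2.03 for Icam1 (1.37 and -0.66). With TMM scaling the fibroblast-gated ratio of Nfkbiz turned to 0.11. All these ratios are relative to the UMIs of a class. Per cell, the class with the lower ratio was not lower for Tnfaip3 (2.535 and 2.559 UMIs), Nfkb1 (2.06 and 2.14) and Nfkbiz (6.80 and 7.65). It was lower for Nfkb2 (0.298 and 0.213), Relb (0.59 and 0.39) and Icam1 (1.73 and 1.33). With 1 library per condition, each of these differences was not tested, and their causes cannot be told apart here.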

How the results depend on the processing

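Of the 70 log2 ratios in the 7 classes, 66 to 70 kept their sign under each of 13 settings (67 of 67 with a minimum of 50 UMIs). Of the counts of members past 2-fold, these moved. Monocyte-gated cells had 3 instead of 4 higher with a looser gate and 5 with TMM factors. Macrophage-gated cells had 1 instead of 2 higher with a stricter gate. T cell–gated cells had 1 instead of 0 with a stricter gate, with TMM factors and with equal weight per cell. NK cell–gated cells had 1 instead of 2 higher with doublets kept, 0 with equal weight per cell and 1 with 10 CPM added, and 0 instead of 1 lower with doublets kept, a looser gate or 10 CPM added. Endothelial cell–gated cells had 2 instead of 1 higher with a stricter gate, 2 with a looser gate, 3 with TMM factors, 2 with equal weight per cell and 0 with 10 CPM added. Lineage-negative cells had 4 instead of 2 with a stricter gate and 1 with 10 CPM added, and all cells 1 instead of 2 with a stricter filter (without Tnfaip3) and 1 with 10 CPM added (without Bcl3). The median of NK cell–gated cells was -0.09 to 0.19, above 0 in 12 of 13 settings. With equal weight per cell the count over all cells stayed at 2, but with Nfkbia (1.40) in place of Bcl3 (0.74). The ratio of Nfkbiz in fibroblast-gated cells turned from -0.11 to 0.11 with TMM factors, and that of Nfkbie over all cells from -0.06 to 0.34 with equal weight per cell. The cause was not tested. The subtraction of neutrophil RNA was added after the data were seen. No paired analysis was possible because each condition had 1 library. Depth limits the endothelial cell–gated values, which rest on 59 and 70 cells.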
